A study of Mus musculus with 30 samples.

Results

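The distal intragenic peaks of POU6F1 were places inside genes, away from every annotated transcription start site (TSS), in mouse embryonic stem cells. At these places the precipitation of a tagged POU6F1 protein gave a peak over an IgG control in both replicates. They were chosen by their presence in both lists and by position. Presence in a list already asks for enrichment over IgG that passed the cut-off of the peak calling. No further limit was set on strength, and none on sequence or RNA level. The strengths and replicate correlations given below therefore leave out places under that cut-off in either replicate. The peak lists of replicate 1 and replicate 2, each called against an IgG precipitation, were intersected at 1 bp, and a shared interval was kept when it lay more than 3 kb from every TSS of GENCODE vM21 and overlapped the body of a protein-coding gene. Of 17994 shared intervals, 1937 (10.8%) met this rule. The others were 14568 intervals within 3 kb of a TSS (81.0%) and 1489 distal intervals outside coding genes (8.28%).

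The stem cells came from blastocysts with a floxed Dis3 gene. They were transfected with a plasmid that drives either a Pou6f1-mCherry fusion or mCherry alone from the strong CAG promoter, and chromatin was collected 48 h later, so the protein mapped is an overexpressed, tagged one. The anti-mCherry precipitation of the Pou6f1-mCherry cells has 2 replicates. Its controls, IgG in the same cells and anti-mCherry in cells with mCherry alone, have 1 sample each and serve both replicates. The RNA data are polyA RNA-seq counts, with ERCC spike-ins, of 23 single embryos from matings of mice that each carry 1 Dis3 null allele, which lacks internal exons of the gene. At embryonic day 2.5 there were 6 wild-type, 2 het and 4 null embryos, and at day 2.75 there were 3, 5 and 3. Embryos and stem cells are different material, and no RNA data of the stem cells are in the series.

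POU6F1 belongs to the POU family of transcription factors, which contact DNA through a POU-specific domain joined to a homeodomain. The family includes OCT4, the pluripotency factor that binds an octamer motif, while POU6 proteins in vitro prefer a different motif with a homeodomain-like TAAT core. POU6F1 has mainly been studied in the nervous system.

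The sequences under the strongest distal intragenic peaks are shown first. These 6 intervals had the highest value of the lower of their 2 fold enrichments over IgG among the 78 that were called in all 4 peak lists (both replicates, both controls), within the 65 of these whose sequence could be shown, which leaves out windows that touch an untranslated region (UTR). Each line is the plus strand of GRCm38 over the central 100 bp of the interval. Capitals mark the POU6 motif (TAATGAG), the octamer (ATGCAAAT), the homeodomain core TAATTA and the GC box (GGGCGG), each on either strand. The windows lie in intron 4 of Hpca (chr4:129113216-129113315), intron 4 of Trim14 (chr4:46507436-46507535), intron 1 of Vegfd (chrX:164382127-164382226), intron 2 of Akap12 (chr10:4334411-4334510) and an intron of Nfib (chr4:82513211-82513310). The window of the C87436 interval (chr6:86472402-86472501) lies in a non-coding exon, outside the reference transcript of C87436. Which gene that exon belongs to was not determined.
Hpca: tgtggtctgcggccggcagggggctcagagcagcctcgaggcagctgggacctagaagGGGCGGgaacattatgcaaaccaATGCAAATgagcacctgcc
Trim14: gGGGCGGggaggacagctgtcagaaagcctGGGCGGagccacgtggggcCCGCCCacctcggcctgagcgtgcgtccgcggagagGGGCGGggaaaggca
Vegfd: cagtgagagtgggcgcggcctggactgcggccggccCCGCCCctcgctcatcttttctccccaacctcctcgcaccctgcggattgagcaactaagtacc
C87436: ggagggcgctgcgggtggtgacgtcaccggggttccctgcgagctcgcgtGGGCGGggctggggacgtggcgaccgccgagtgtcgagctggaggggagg
Akap12: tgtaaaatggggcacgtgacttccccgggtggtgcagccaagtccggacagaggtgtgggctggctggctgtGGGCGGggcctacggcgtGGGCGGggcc
Nfib: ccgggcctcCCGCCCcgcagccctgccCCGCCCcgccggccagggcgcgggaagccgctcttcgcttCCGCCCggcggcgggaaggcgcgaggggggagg

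All 6 windows held at least 1 GC box, and Trim14 held 4. The POU6 motif and the core TAATTA were in none of them, and the octamer was in Hpca alone. Their GC content ran from 62% (Hpca) to 85% (Nfib).

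Only 4 of the 65 windows held a POU6 motif or an octamer within 100 bp. Besides Hpca these were in intron 1 of Rbm20 (chr19:53740869-53740968), intron 1 of Grhl3 (chr4:135570290-135570389) and intron 62 of Syne2 (chr12:76005085-76005184). They are shown because they carry the letters that POU proteins are known for. Here capitals mark the POU6 motif and the octamer only.
Rbm20: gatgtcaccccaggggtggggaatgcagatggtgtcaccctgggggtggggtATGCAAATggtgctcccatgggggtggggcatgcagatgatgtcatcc
Grhl3: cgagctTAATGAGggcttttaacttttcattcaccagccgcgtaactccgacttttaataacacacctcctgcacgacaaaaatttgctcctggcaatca
Syne2: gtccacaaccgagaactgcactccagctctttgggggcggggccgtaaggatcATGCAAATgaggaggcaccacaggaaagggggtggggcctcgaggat

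The Grhl3 window held the POU6 motif, the other 2 the octamer. Over IgG, Rbm20 was enriched 10.9-fold in replicate 1 and 7.33-fold in replicate 2, Grhl3 10.9-fold and 5.6-fold, and Syne2 6.32-fold and 4.28-fold. Grhl3 had 44% GC, the lowest of the 9 windows shown, and Syne2 also held 1 GC box.

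The first question was how far each list of peaks carried the distal intragenic class. Replicate 1 against IgG held 82694 peaks, 24296 of them (29.4%) distal and in a coding gene. Replicate 2 against IgG held 24524 peaks, with 4521 (18.4%) in that class. Against mCherry-only cells, replicate 1 held 31348 peaks and 5412 (17.3%) of the class, and replicate 2 held 3630 peaks and 136 (3.75%). The share of the class was lower in replicate 2 than in replicate 1, and lower against mCherry-only cells than against IgG. No read depth comes with the lists, so the part of depth in these numbers was not tested.

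The control with mCherry alone was not used by the rule, though it shares the precipitated library. Of the 1937 intervals, 708 (36.6%, 95% exact binomial interval 34.4% to 38.7%) overlapped a peak called against mCherry-only cells in replicate 1, and 81 (4.18%, 3.33% to 5.17%) did so in replicate 2. Both replicates gave 78 (4.03%), and 1226 (63.3%) were called against IgG only. Near a TSS the shares were 78.6% and 21.8%, and in distal intervals outside coding genes 52.9% and 8.66%. These intervals cover counting error only. Among the 708, the fold enrichment of replicate 1 was lower against mCherry-only cells than against IgG in 666 (94.1%), with medians of 5.66 and 8.39. Seen from the other side, the mCherry-only lists of both replicates shared 3463 intervals, of which 83 were distal and intragenic, and 78 of those overlapped 1 of the 1937 while 5 did not.

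**Figure D1:**
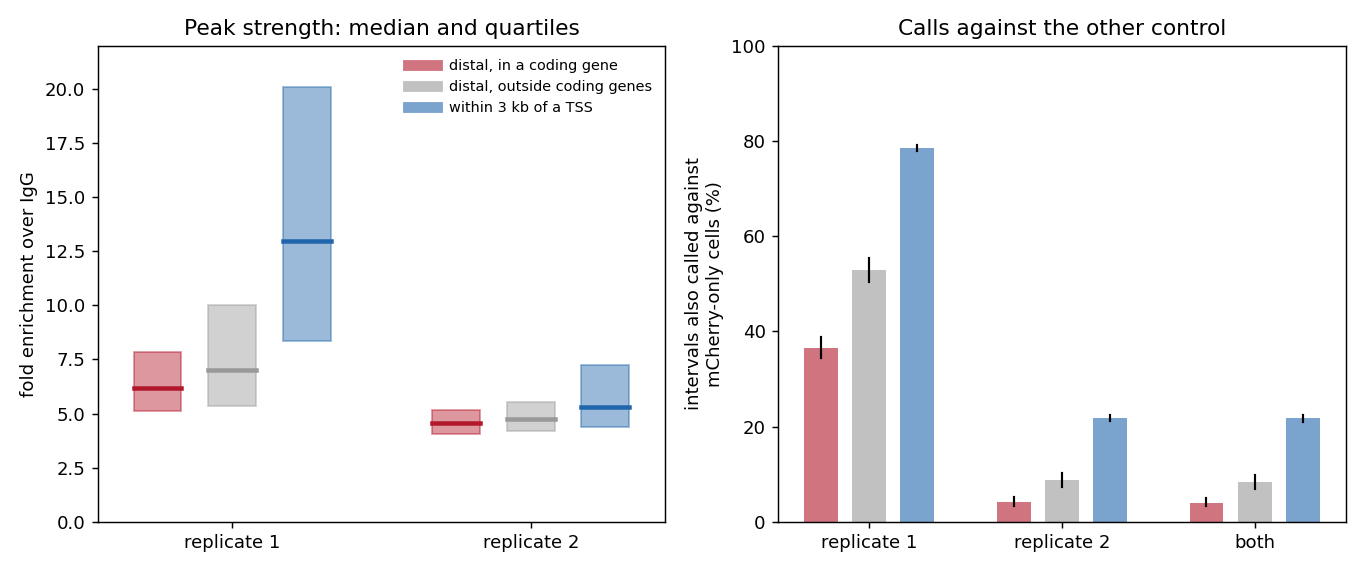
Left: median (line) and quartiles (box) of the fold enrichment over IgG for each class of shared interval in each replicate. Right: percent of each class also called against mCherry-only cells, with 95% exact binomial intervals (black lines). The distal intragenic class (red) has the lowest medians, 6.19 and 4.56, and the lowest shares, 36.6%, 4.18% and 4.03%.

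Fold enrichment is the ratio of signal to control at the summit, as MACS2 gave it. For the distal intragenic peaks its median was 6.19 in replicate 1 (quartiles 5.14 and 7.83) and 4.56 in replicate 2 (4.03 and 5.14). Near a TSS the medians were 13 and 5.33, and in the other distal intervals 7.03 and 4.75. The median -log10 q was 6.30 and 3.60, the median peak width 287 bp and 201 bp, and the median width shared by the replicates 162 bp, with a range of 1 bp to 764 bp. The 2 summits lay a median of 75 bp apart. Replicate 1 had the higher fold enrichment in 1653 of the 1937 intervals (85.3%). Across these 1937 intervals, Pearson's r between the log2 fold enrichments of the replicates was 0.409 and Spearman's rho was 0.225, against 0.659 and 0.628 over the 14568 intervals near a TSS. Intervals of a replicate share its library and its control, so they are not independent points.

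The share called against the second control was highest in the strongest intervals. When the intervals were divided into 4 groups of similar size by the lower of their 2 fold enrichments, the share called against mCherry-only cells in replicate 2 was 0.609%, 0.619% and 1.03% in the first 3 groups and 14.8% in the strongest, whose values ran from 5.02 to 14.9. In replicate 1 these shares were 29.6%, 28.0%, 29.6% and 59.7%. The classes were not matched in the strength of replicate 1, where fold enrichment was a median of 1.37 times that of replicate 2 in distal intragenic intervals and 2.28 times near a TSS. Below a lower fold enrichment of 5.02, 29.0% of distal intragenic intervals and 61.0% of intervals near a TSS were called against mCherry-only cells in replicate 1, and at or above it 59.1% and 91.7%.

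The strongest interval by the lower fold enrichment lay in Hpca (ENSMUSG00000028785), which encodes the neuronal calcium sensor hippocalcin, from 129113094 to 129113438 on chromosome 4. Its fold enrichment over IgG was 36.7 and 14.9 in replicates 1 and 2, and over mCherry-only cells 13 and 4.11. The interval in Trim14 (ENSMUSG00000039853), a TRIM-family gene, reached 28.5 and 12.8 over IgG and 17.9 and 3.87 over mCherry-only cells. Vegfd (ENSMUSG00000031380), a gene for a lymphatic growth factor, had 15.4 and 12.6, then 8.52 and 8.18. All 3 lay in introns and none was closer to a TSS than 5529 bp. C87436 (ENSMUSG00000046679), a gene with no established role, had 40.1 and 12.4 over IgG and 21.4 and 6.02 over mCherry-only cells. In Akap12 (ENSMUSG00000038587), which encodes a kinase-anchoring scaffold, the values were 32.6 and 12.1, then 27.8 and 9.02. The other 5 of the 10 strongest lay in Gm37388 on chromosome 18, Nfib, Itpkb, 1500009C09Rik and Phldb3. All 10 were called in all 4 lists, and all but 1500009C09Rik held a GC box in the central 200 bp. No sequence from chromosome 18 is shown. In Gm37388 the fold enrichment was the same over either control, 22.1 in replicate 1 and 12.1 in replicate 2, and in Itpkb it was higher over mCherry-only cells (34.8 and 14.3) than over IgG (28.5 and 11.9).

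At the 3 kb limit, the closest intervals inside it were in Tedc1 (3001 bp from a TSS, fold enrichment 4.53 and 3.96), Dctn1 (3002 bp, 5.78 and 4.21) and Slc17a9 (3005 bp, 6.43 and 4.75). Among those just outside were Kndc1 (2998 bp, 5.41 and 4.38) and Mroh2a (2995 bp, 4.34 and 3.76). None of these 5 was called against mCherry-only cells in either replicate.

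By the midpoint of the interval, 1221 of the distal intragenic peaks (63.0%) lay in an intron, 549 (28.3%) in a coding exon, 139 (7.18%) in a UTR and 26 (1.34%) in an exon of a non-coding transcript. The midpoint of 2 more lay just beyond the gene body. To set these shares against the genome, all 4004249 windows of 200 bp that meet the same position rule (801 Mb) were annotated the same way. Coding exons make up 2.25% of these windows and introns 93.7%, so the share in coding exons was 12.6 times that of the windows. The 78 intervals called in all 4 lists differed from the rest in this respect, with 8 in coding exons (10.3%) and 59 in introns (75.6%). Among exonic intervals the strongest had the host C87436, though it lay outside that gene's reference transcript. The next were in 1500009C09Rik (exon 2 of 2), Phldb3 (exon 16 of 16), the agouti gene a (exon 4 of 4) and the zinc-finger gene Zfp771 (exon 3 of 3). Of 672 intervals in an exon of the gene's reference transcript, 302 (44.9%) were in the last exon, and of 1172 in one of its introns, 332 (28.3%) were in intron 1.

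The distal intragenic peaks differed from the genome windows in base composition. The central 200 bp had a median GC of 59.5% (quartiles 57% and 62.5%), against 42.5% in the genome windows and 66% near a TSS. The median was the same, 59.5%, in distal intervals outside coding genes. No distal intragenic peak had less than 45% GC, where 61.9% of the windows lie, and 17 lay between 45% and 50%. CpG was present at a median of 0.353 of the number that base composition predicts, against 0.155 in the windows and 0.785 near a TSS. Island-like windows, with at least 50% GC and a CpG ratio of at least 0.6, made up 16.4% of the distal intragenic peaks and 0.520% of the genome windows. They made up 74.0% of the TSS class and 22.1% of the distal intervals outside coding genes. Windows with at least 50% of bases masked as repeats made up 0.361% of the distal intragenic peaks and 21.8% of the genome windows. Mean GC rose toward the midpoint, from 49.9% at 1475 bp to 60.4% at 25 bp before it.

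**Figure D2:**
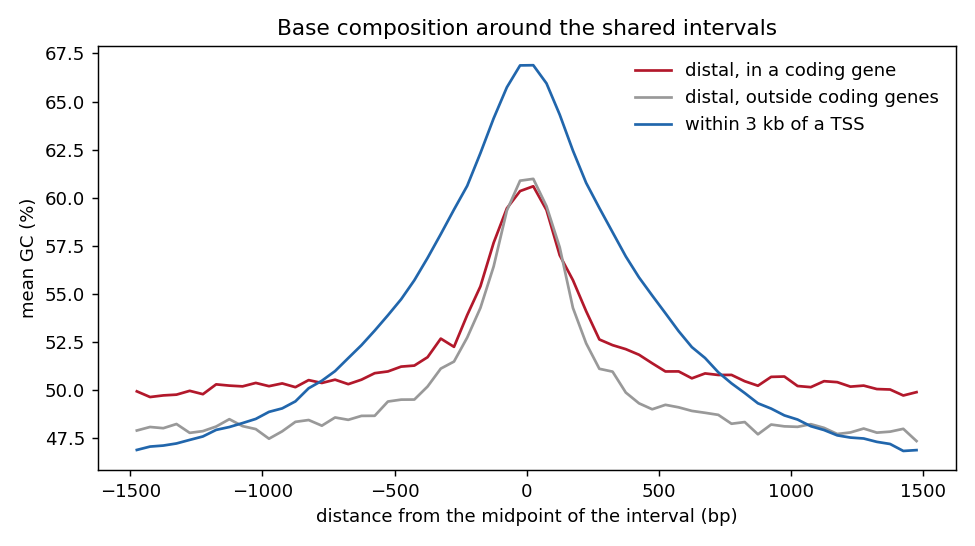
Mean GC (percent, bins of equal width) against distance in bp from the midpoint of the shared interval, 1 line per class. The line of the distal intragenic class (red) rises from 49.9% at the left edge to 60.4% beside the midpoint, close to the other distal class there and lower than the TSS class, which reaches 66.9%.

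Intervals in coding exons were richer in GC (median 61.5%) than those in introns (58.5%), as are exons in the genome (49% against 42% in intron windows). Coding exons therefore had to be compared at equal GC. Between 55% and 60% GC, 18.7% of the distal intragenic peaks and 10.1% of the genome windows lay in coding exons. The shares were 36.6% and 21.7% between 60% and 65%, 52.9% and 25.0% between 65% and 70%, and 58.5% and 43.0% from 70% up. At equal GC the exon shares of peaks and windows were thus closer than without regard to GC, where they differed 12.6 times. The number of peaks per 2 Mb of windows was higher at each step of GC, from 0.199 between 45% and 50% to 764 from 70% up. The part of base composition in the calls was not tested.

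**Figure D3:**
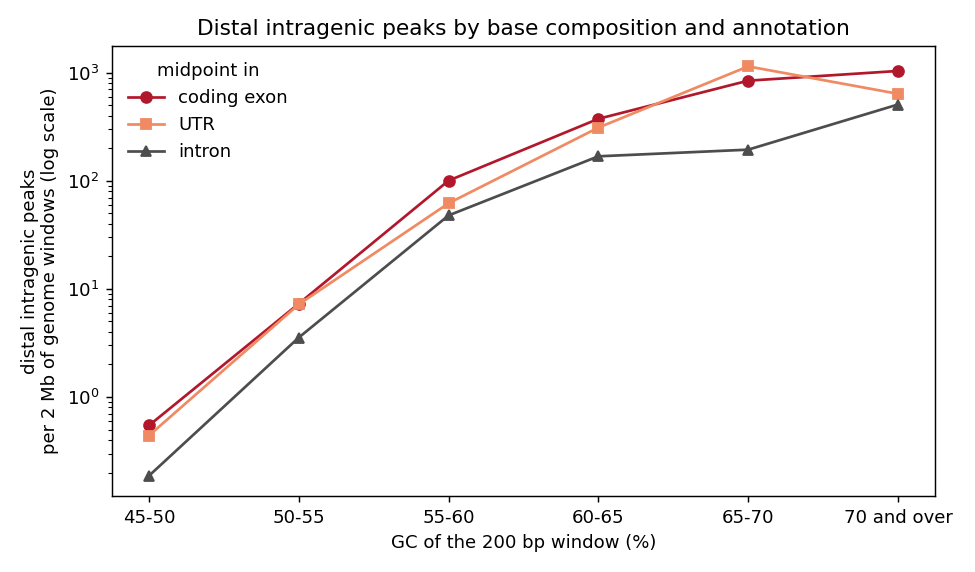
Distal intragenic peaks per 2 Mb of genome windows (log scale) against the GC of the window in percent, for midpoints in coding exons (circles), UTRs (squares) and introns (triangles). Between 55% and 60% GC there were 100.4 in coding exons, 62.0 in UTRs and 47.9 in introns.

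Motifs were counted in the central 200 bp on both strands. None of the 16 motifs contains another. The POU6 motif TAATGAG was in 23 of the 1937 distal intragenic peaks (1.19%, 95% exact binomial interval 0.754% to 1.78%), in 3.04% of the genome windows and in 0.714% of intervals near a TSS. The octamer ATGCAAAT was in 12 (0.620%, 0.321% to 1.08%), against 1.54% of windows, and all 12 lay in introns. The core TAATTA was in 18 (0.929%), against 7.18%. All these motifs are rich in A and T, and so were compared at equal GC as well. Between 55% and 60% GC, the POU6 motif was in 1.21% of the peaks and 1.17% of the windows, the octamer in 0.604% and 0.281%, and TAATTA in 0.966% and 0.762%. Between 60% and 65%, the POU6 motif was in 8 peaks (1.26%) and 0.6% of windows. Among the 78 intervals called in all 4 lists, 4 (5.13%) held an octamer and 2 (2.56%) a POU6 motif. SOX (AACAAAG) was in 2.94% of the peaks and 5.81% of windows, and TEAD (ACATTCCA) in 0.774% and 0.958%, but between 55% and 60% GC the order turned, with SOX in 4.23% and 2.42% and TEAD in 0.845% and 0.662%. YY1 (AAGATGGC) was in 0.723% and 1.64%, and in 0.725% and 2.02% between 55% and 60% GC. A match in these letters is a description of the sequence and shows no binding.

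Most GC-rich motifs were more frequent than in the genome windows as a whole. The GC box GGGCGG was in 446 of the distal intragenic peaks (23%) and 1.82% of windows, and in 51 of the 78 called in all 4 lists (65.4%). At equal GC the difference was smaller, with 15.1% against 8.10% between 55% and 60%, and 26.3% against 15.5% between 60% and 65%. The E-box CACGTG was in 7.80% against 2.16% and the NRF1 motif GCGCATGC in 1.91% against 0.244%. The ETS motif CCGGAAG was in 3.72% against 0.562%. It was in 3.74% against 1.09% between 50% and 55% GC, and in 3.50% against 1.85% between 55% and 60%. The shares were 3.62% against 3.69% between 60% and 65% GC, and 4.90% against 12.4% between 65% and 70%. The KLF motif GGGTGTGG was in 4.23% against 1.23%, GGACAGCG, a part of the REST motif, in 1.24% against 0.153%, and the CRE TGACGTCA in 0.620% against 0.111%. All of these motifs, ETS included, were closer to their shares in the windows between 55% and 60% GC. The E-box was there in 9.42% against 4.03%, NRF1 in 1.69% against 0.492% and KLF in 4.11% against 3.28%. The REST part was in 0.725% against 0.541% and the CRE in 0.362% against 0.193%. The nuclear receptor motif TCAAGGTCA was in 10 peaks (0.516%, 95% exact binomial interval 0.248% to 0.947%), against 0.455% of windows, and between 55% and 60% GC in 8 peaks (0.966%) and 0.388% of windows. CTCF is known for its place at insulators and the anchors of chromatin loops. Its motif was in 35 peaks (1.81%), 18.7 times its share of 0.0967% in the windows. In distal intervals outside coding genes the share was higher, at 3.63%. The next shares are again of the distal intragenic peaks and the windows. Between 55% and 60% GC it was in 2.05% and 0.315%, and between 60% and 65% in 1.89% and 0.293%. It was in 5 of the 78 called in all 4 lists (6.41%). The NFY motif CCAAT was less frequent than in the windows, 19% against 27.1%, but at 55% to 60% GC it was in 21.1% and 17.4%.

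**Figure D4:**
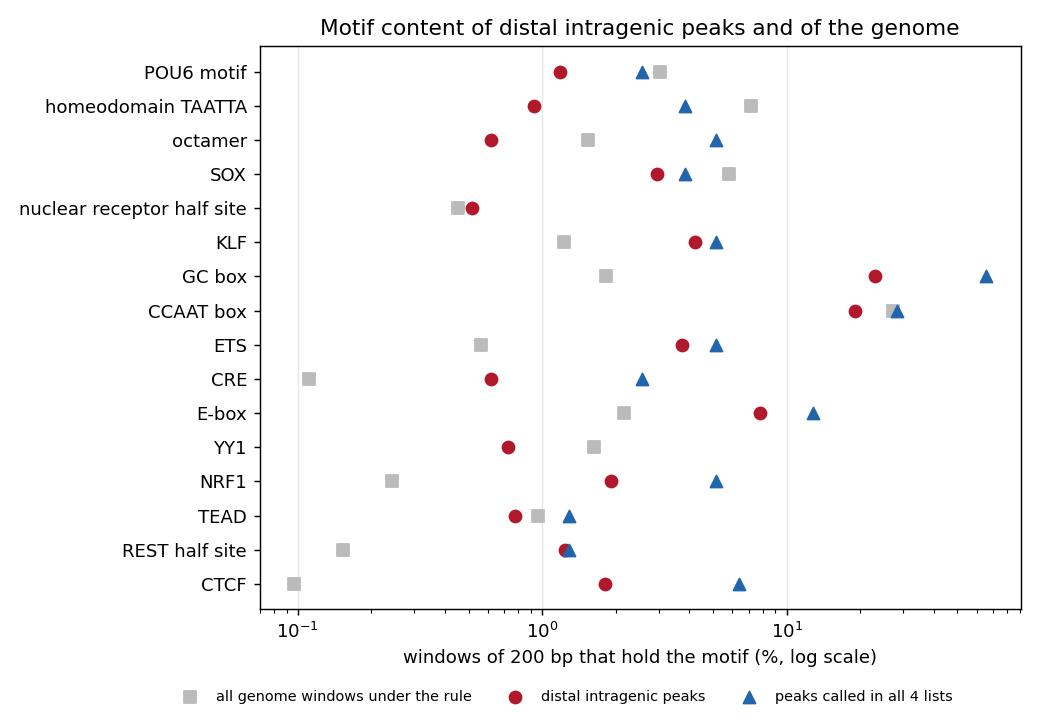
Percent of windows of 200 bp (log scale) that hold each motif, in the genome windows under the same position rule (squares), the distal intragenic peaks (circles) and the 78 called in all 4 lists (triangles, none drawn where the share is 0). The GC box reaches 65.4% in the 78, and the CTCF motif is at 1.81% in the peaks and 0.0967% in the genome.

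The peaks fell in 1372 coding genes, 6.23% of the 22028 in the annotation. Of these host genes, 1011 held 1 peak, 243 held 2 and 118 held 3 or more. Hosts were long, with a median length of 48.7 kb. The median was 17.3 kb for all coding genes and 26.4 kb for the 16894 longer than 6 kb. A gene of over 6 kb can place a peak over 3 kb from both ends. The rule asks for distance from TSSs only, so shorter genes can also be hosts, and 1346 of the 1372 hosts were over 6 kb. A shared interval within 3 kb of their own TSS was present in 991 hosts (72.2%), against 49.7% of all coding genes and 55.5% of those over 6 kb. The peaks lay a median of 8278 bp from the nearest TSS (quartiles 4941 and 16341, highest 435470), and 79 (4.08%) lay over 50 kb away. The annotation used sets what counts as distal. Among RefSeq transcripts, 14 peaks (0.723%) lay within 3 kb of a curated start, and 212 (10.9%) within 3 kb of any start, predicted ones included.

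Chromosome 11 stood apart from the other chromosomes. It held 370 of the 1937 peaks (19.1%) and 5.23% of the genome windows, which is 17.7 peaks per 2 Mb of windows against 4.84 over all chromosomes. Among windows of at least 55% GC it held 206.5 per 2 Mb, against 81.8 on the other chromosomes together and 102 on chromosome 4, the next highest. Along the chromosome the figure ran from 134.5 between 20 and 40 Mb to 275.3 between 80 and 100 Mb. Chromosome 11 also held 14.6% of the distal intragenic peaks in the full list of replicate 1, 14.1% of those in the list of replicate 2, 11.8% of the intervals near a TSS and 15 of the 78 called in all 4 lists (19.2%). Without chromosome 11, 27.9% of the peaks lay in coding exons, their median GC was 59.5%, and 37.3% and 4.15% were called against mCherry-only cells in replicates 1 and 2.

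The host with the most peaks was Gm20388 (ENSMUSG00000092329), with 56. Its annotated body on chromosome 8 spans 4435 kb and contains 71 other coding genes, and 33 of its peaks also lie in a shorter gene. Gse1, a gene for a coiled-coil protein of chromatin complexes that lies inside Gm20388, held 17 of the same peaks, all in introns, with lower fold enrichments from 3.69 to 7.12. Dnah17, which encodes a dynein heavy chain of cilia, held 12, of which 5 were in coding exons. Rbfox3, the gene of the neuronal splicing factor NeuN, held 10, and Casz1, a zinc-finger gene, 9. Per 10 kb these were 0.126 in Gm20388, 0.482 in Gse1, 1.10 in Dnah17, 0.237 in Rbfox3 and 0.598 in Casz1. In these 5 genes, replicate 2 called peaks against mCherry-only cells at 2 of the intervals, both in Gm20388.

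The genes of early development were read from lists of known regulators. In pluripotency, 3 of 28 genes held a peak, namely Mycn (fold enrichment 8.26 and 5.11), Sall4 (7.07 and 4.35) and Tfcp2l1 (10.4 and 4.28), and all 3 were called against mCherry-only cells in replicate 1 and not in replicate 2. Pou5f1, Sox2 and Nanog held none. In trophectoderm, 2 of 20 genes were hosts, Tfap2a and Fgfr2, and the 3 strongest of their 6 peaks, all in the long annotated body of Fgfr2, lay in the genes Btbd16 and Fam53b inside it. Cdx2 held none. In primitive endoderm and FGF signalling, 2 of 19 were hosts, Fgfr1 (10.4 and 4.38 for a peak in intron 2) and Gata4 (4.45 and 3.56). Of the Hippo pathway, which sets the first lineage choice, 5 of 21 genes held 8 peaks, in the transcription factors Tead1 and Tead3, their partner Vgll4, and the upstream proteins Amotl1 and Wwc1. The peak in the last exon of Wwc1 was called in all 4 lists, at 17.4 and 5.82 over IgG and 22.3 and 7.06 over mCherry-only cells.

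Among Wnt genes, 7 of 26 were hosts, with the ligands Wnt3 and Wnt3a, the receptor Lrp5, the ligase Znrf3, the acyltransferase Porcn, and the nuclear effectors Lef1 and Tcf7l2. Among TGF-beta genes, 2 of 25 were hosts, the inhibitors Smad6 and Smurf1. Of 46 chromatin regulators, 7 held 13 peaks, and the one in intron 4 of Arid1b, a subunit of the BAF remodelling complex, was called in all 4 lists at 18.7 and 9.31 over IgG. Pou2f2 was the one host of 13 POU genes, Exosc5, in a stretch it shares with Tmem91, the one of 20 RNA exosome genes, and Nes the one of 10 differentiation markers. Of 32 long neuronal and fragile-site genes, 6 were hosts. Neither the 12 embryo markers nor the 10 cumulus and granulosa markers included a host. Genes of a list beyond those with its 3 strongest peaks were named after their values were seen. The share of host genes in any list can be read beside 7.97% of the coding genes over 6 kb long.

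The last question was whether host genes differed in RNA level between Dis3 genotypes (Dis3 encodes a nuclease of the RNA exosome). Embryo libraries held 1690192 to 14015980 counts on genes, with medians of 8644043 in wild-type, 8895879 in het and 4808323 in null embryos, so null libraries were shallower. All levels are CPM, counts scaled to a common library size, after TMM normalization. Dis3 itself (ENSMUSG00000033166), which holds no distal intragenic peak, had 18.1, 107 and 147 CPM (lowest, median, highest) in 9 wild-type embryos, 30.4, 43.8 and 59.2 in 7 het embryos and 0, 12.8 and 21.5 in 7 null embryos. Null and het embryos did not overlap. At day 2.5, wild-type replicate 6 (18.1 CPM) lay in the null range and wild-type replicate 5 (40.2 CPM) in the het range, while the other 7 wild-type embryos had 63.6 CPM or more. Counts and medians of host genes against wild-type are therefore given with all embryos and without each of these 2 in turn. Null against het, the log2 fold change of Dis3 was -2.06 (SE 0.53, edgeR adjusted p 0.0253), lower than the het median in 7 of 7 null embryos. With a replicate block it was -2.13 (adjusted p 0.11 in edgeR) and not called.

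The 12 embryo markers were all detected, summed to medians of 1799, 2768 and 2178 CPM in wild-type, het and null embryos, and Pou5f1 was the most abundant. Of 10 cumulus and granulosa markers, 2 passed the filter on low counts, their sum had medians of 21, 23.5 and 31.8 CPM, Amhr2 was the most abundant, and Ptx3, Inha, Inhba and Cyp11a1 were at 0 in every embryo. Of 10 differentiation markers 5 passed, the sum had medians of 39.1, 32.6 and 28.2 CPM, Pax6 was the most abundant and T was at 0. Fewer cells and less RNA per cell cannot be told apart in whole embryos.

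Of the 1372 host genes, 827 passed the filter and were tested, and 545 were not. Tested hosts had a median of 9.50 CPM in wild-type embryos, against 21.5 in all coding genes tested. Calls needed both an adjusted p below 0.1 over all 13415 genes tested and a log2 fold change beyond 1 in edgeR, and the p-values measure only the spread between these embryos. Null against het, 11 hosts were up and 24 down. As shares of the tested hosts these are 1.33% and 2.90%, while 3.67% of all genes tested were up and 2.06% down. Among coding genes over 6 kb, 1.35% were up and 2.45% down. Genes of the same embryos are not independent of one another, so these shares are set side by side without a test. The number down moved with single embryos, and so did that over all genes tested, 276 in the main fit. Each count of hosts is followed by that of all genes. They were 15 (225) without E2.5 null replicate 2 and 13 (181) without E2.5 null replicate 4. Without E2.75 het replicate 1 they were 9 (180), and without E2.75 het replicate 3 13 (219). They rose to 36 (368) without E2.75 null replicate 2 and 35 (319) without E2.5 het replicate 2. Stages are unevenly spread over the genotypes, and with stage as a covariate 16 hosts were up (1.93%, beside 3.62% of all genes tested) and 15 down (1.81%, beside 2.12%). The share of hosts down was thus above that of all genes in the main fit and below it with this covariate.

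Null against wild-type, 23 hosts were up (2.78%, beside 3.66% of all genes tested) and 11 down (1.33%, beside 1.59%). Of coding genes over 6 kb, 1.36% were up and 1.86% down. Without E2.5 wild-type replicate 5 the host counts were 17 (2.06%) and 12 (1.46%), beside 1.28% and 1.83% of coding genes over 6 kb. Without E2.5 wild-type replicate 6 they were 15 (1.82%) and 12 (1.46%), beside 1.3% and 1.76%. Het against wild-type, edgeR called 0 hosts up and 0 down, as it called 0% of all genes tested in both directions. At an unadjusted p under 0.05, 53 hosts (6.41%) were higher and 11 (1.33%) lower in het embryos, beside 424 (3.16%) and 510 (3.80%) of all genes tested. DESeq2 called 3 hosts up (Cbx6, Insr and Sipa1l2, named after their values were seen) and 0 down, beside 17 and 10 of all genes tested. Leaving out either wild-type embryo kept both edgeR counts at 0. At an unadjusted p under 0.05, 44 hosts were higher and 10 lower without E2.5 wild-type replicate 5. Over all 13272 genes tested these were 401 and 464. Without E2.5 wild-type replicate 6 they were 47 and 7 hosts, beside 376 and 434 of all 13293 genes tested. DESeq2 called 1 host up and 0 down in either case, of 824 and 823 tested hosts.

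Over the 827 tested hosts, the median log2 fold change was -0.24 for null against het, 0.05 for null against wild-type and 0.28 for het against wild-type, beside 0.02, -0.02 and -0.03 over all genes tested. Without E2.5 wild-type replicate 5 the hosts' medians were 0.04 for null and 0.26 for het against wild-type, and without E2.5 wild-type replicate 6 they were 0.07 and 0.28. The 3 comparisons share embryos and are not independent of one another. Scaled to the ERCC spike-ins, the median of all genes, null against het, moved to -1.08 and that of the hosts to -1.28. Values are relative to TMM scaling unless another scaling is named.

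The called hosts that held in every alternative tried, leaving out each null or het embryo included, were Cpne5, Pomc, Tmem267, Ell and C87436 among the 10 largest rises, and Gramd4 and Snap47 among the 10 largest falls. Ell (ENSMUSG00000070002), an elongation factor of RNA polymerase II, had 3.39, 11.4 and 22.5 CPM (lowest, median, highest) in wild-type, 6.31, 17.2 and 34.8 in het and 72.8, 102 and 212 in null embryos. Null embryos were above all the others, in 7 of 7, and the log2 fold change against het was 2.62 (SE 0.39, adjusted p 3.08e-04). Tmem267 (ENSMUSG00000074634), which encodes a predicted membrane protein, had 4.01, 16.8 and 80.3 CPM in wild-type, 10.3, 21.5 and 37.1 in het and 92.9, 146 and 217 in null embryos. Again 7 of 7 null embryos were above every het and wild-type embryo, and the log2 fold change against het was 2.73 (SE 0.49, adjusted p 0.00158). In C87436 (ENSMUSG00000046679), the host of the strongest exonic peak, levels were 8.15, 15.4 and 31.2 CPM in wild-type, 8.63, 12.3 and 15.5 in het and 23.1, 63.7 and 116 in null embryos. All null embryos were above all het embryos, but the lowest null embryo lay within the wild-type range, and the log2 fold change against het was 2.45 (SE 0.38, adjusted p 4.02e-04). Scaled to spike-ins the folds were smaller but still called, at 1.28 for Ell, 1.59 for Tmem267 and 1.13 for C87436. C87436 is among the 991 hosts that also have a shared interval at their own TSS.

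Pomc (ENSMUSG00000020660), which encodes the precursor of several peptide hormones, had 0.668, 3.11 and 9.64 CPM in wild-type, 0, 1.83 and 5.14 in het and 13.7, 19 and 65.3 in null embryos, with a log2 fold change against het of 3.62 (SE 0.80, adjusted p 0.00854) and all 7 null embryos above the rest. Cpne5 (ENSMUSG00000024008), a copine that binds membranes with calcium, had 0, 0.533 and 3.05 CPM in wild-type, 0, 1.51 and 3.55 in het and 9.77, 23.7 and 34.4 in null embryos, with a log2 fold change of 3.82 (SE 0.99, adjusted p 0.0257). These low levels in wild-type and het embryos make the folds imprecise. Scaled to spike-ins they were 2.22 for Pomc and 2.85 for Cpne5. Pcgf2, a Polycomb protein, was called whichever embryo was left out (log2 fold change 2.50 with all embryos). It was not called when scaled to spike-ins (1.34) or with a replicate block (2.22, edgeR adjusted p 0.27). The gene 1500009C09Rik lost its call without E2.5 null replicate 4 (log2 fold change 3.56, against 3.65 with all embryos) and with a replicate block (3.37). Ccdc40, needed for motile cilia, and Prdm13, a neural zinc-finger gene, lost theirs in 9 and 7 of 14 fits without 1 embryo. The log2 fold change of Ccdc40, 2.52 with all embryos, was 2.15 to 2.77 over all 14 fits, called or not. Ccdc40 was also not called when scaled to spike-ins (1.2, edgeR adjusted p 0.276), with no filter on low counts (2.38, adjusted p 0.103 in edgeR) or with a replicate block (2.77, adjusted p 0.334 in edgeR). Prdm13 was at 0 in 5 of 7 het and 2 of 7 null embryos, with at most 0.491 and 13.9 CPM, so its fold is not given. Its call was lost with a replicate block as well.

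Among the falls, Snap47 (ENSMUSG00000009894), of the SNARE family of membrane fusion, had 3.34, 13.6 and 30.7 CPM in wild-type, 9.34, 16.3 and 37.4 in het and 0, 0.312 and 9.74 in null embryos. All but E2.75 null replicate 2, the highest at 9.74, were below every het embryo, and the log2 fold change was -3.62 (SE 0.89, adjusted p 0.018). Gramd4 was at 0 in 6 of 7 null embryos and had a median of 2.33 CPM in het embryos, and Bcl9, a co-activator of Wnt signalling, was at 0 in 7 of 7 null embryos, with a het median of 0.106 CPM. At such levels a fold is not given, and Bcl9 was not called with a replicate block (edgeR adjusted p 0.176). The other 7 (Stard5, Srebf2, Syp, Stard3, Eefsec, Phc2 and Pnliprp2) each lost the call when 1 of the embryos was left out. Over all 14 fits without 1 embryo, called or not, the log2 fold change ran from -3.74 to -2.79 in Stard3 (-3.05 with all embryos). It ran from -3.65 to -2.64 in Eefsec (-2.91), from -4.49 to -2.29 in Phc2 (-2.82) and from -3.05 to -2.37 in Pnliprp2 (-2.65). With stage as a covariate Stard3, Eefsec and Phc2 were not called, at -2.64, -2.45 and -2.96, nor with a replicate block, at -2.38, -2.84 and -4.54. Stard5 was at 0 in 5 of 7 null embryos, so its fold is not given. It was also not called with a replicate block (edgeR adjusted p 0.109). Syp, of synaptic vesicles, lost it without E2.75 het replicate 5 (log2 fold change -3.11, against -3.27) and with a replicate block (-3.82, adjusted p 0.114 in edgeR). Srebf2, the sterol regulator, had medians of 1.23, 45.4 and 2.44 CPM in wild-type, het and null embryos. Its levels differed between the stages. At day 2.75 they were 15.4, 33.8 and 70.3 CPM in wild-type embryos, 36.5 to 116 in het and 1.97, 3.32 and 7.69 in null embryos. At day 2.5 they were at most 2.47 in wild-type, 6.02 and 6.03 in het and 0.850 to 2.91 in null embryos. Srebf2 lost its call without E2.75 het replicate 1 (log2 fold change -3.40, against -3.86), with stage as a covariate (-1.96) and with a replicate block (-2.53).

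**Figure D5:**
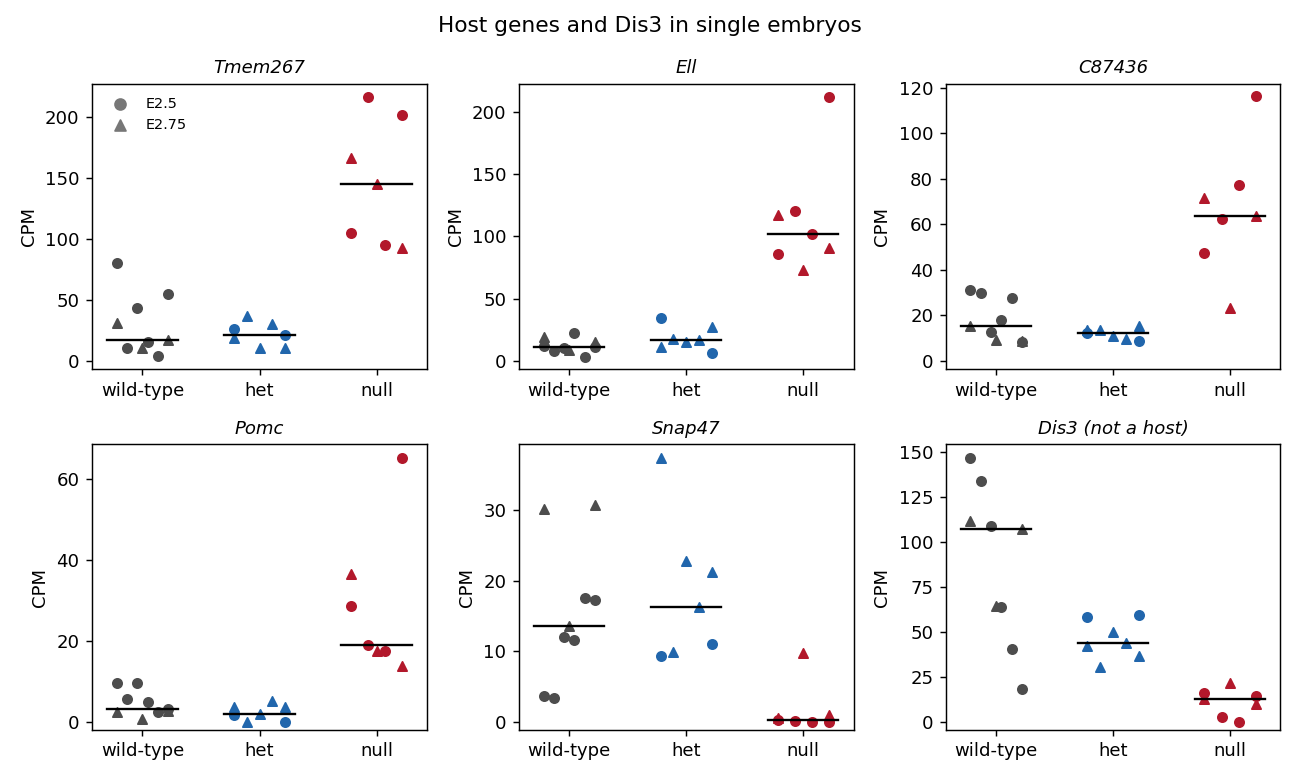
CPM after TMM scaling in each of 23 embryos (circles day 2.5, triangles day 2.75, lines the medians) for 5 host genes and for Dis3. Null embryos lie above every het embryo in Tmem267, Ell, C87436 and Pomc and below every het embryo in Dis3, and in Snap47 1 null embryo at 9.74 CPM lies among the het embryos.

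The factor and the genes it is studied with were read as well. Pou6f1 had medians of 12.4, 15.8 and 29.0 CPM in wild-type, het and null embryos, with a log2 fold change of 1.38 (SE 0.54, edgeR adjusted p 0.169) for null against het, above the het median in 7 of 7 null embryos but not called. It was called with stage as a covariate (log2 fold change 1.72, edgeR adjusted p 0.0706) and by DESeq2 (1.39, adjusted p 0.0862). In the other 4 of 6 settings with all embryos it was not called, and spike-in scaling gave the lowest value, 0.24. Nanog had medians of 49.5, 117 and 25.2 CPM and a log2 fold change of -1.37 (SE 0.55, adjusted p 0.176), and Cdx2 25.0, 60.9 and 13.9 CPM and -2.63 (SE 0.98, adjusted p 0.141), both lower than the het median in 7 of 7. Nanog was called when scaled to spike-ins (-2.40, edgeR adjusted p 0.015) and by DESeq2 (-1.35, adjusted p 0.0998), and Cdx2 when scaled to spike-ins (-3.38, edgeR adjusted p 0.0336) and with no filter on low counts (-2.71, edgeR adjusted p 0.0969). Each was not called in its other 4 of 6 settings. With stage as a covariate Nanog had -1.10 (adjusted p 0.286 in edgeR) and Cdx2 -2.64 (0.123), and of 14 fits without 1 embryo each, Nanog was called in 0 and Cdx2 in 1. Pou6f1 and Nanog have a shared interval within 3 kb of a TSS and Cdx2 has none, and none of the 3 holds a distal intragenic peak.

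The hosts of the strongest peaks were mostly undetected or not called in the embryos. Of the 10 hosts, Hpca, Vegfd, Gm37388 and Itpkb did not pass the filter. Gm37388 was at 0 in every embryo and Hpca had at most 5.12 CPM. Trim14, Akap12, Nfib and Phldb3 were tested and not called, with adjusted p of 0.913, 0.844, 0.859 and 0.611 for null against het and log2 fold changes of -0.44, -0.23, -0.63 and 0.43. C87436 and 1500009C09Rik were called up, the only 2 of the 48 tested hosts of peaks called in all 4 lists, (4.17%, beside 3.67% of all genes tested and 1.35% of coding genes over 6 kb), where 0 were called down. Null against wild-type, 5 of these 48 were called up (10.4%, beside 3.66% and 1.36%) and 0 down. They were the same 2 with Adamts2, Insr and Zbtb7b, named after their values were seen, and counts this small are imprecise. Without E2.5 wild-type replicate 5 or 6 the number up was 3 of 48 in either case. Over all genes tested, 461 of 13272 and 454 of 13293 were then up.

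A peak inside a gene came most often with an interval at the gene's own TSS. Of 685 tested hosts with such an interval, 8 were up (1.17%) and 23 down (3.36%), null against het. Of 142 without one, 3 were up (2.11%, Prdm13, 1500009C09Rik and Pomc) and 1 down (0.704%, Pnliprp2). Among coding genes that are not hosts, 1.54% were up and 2.31% down with an interval at the TSS, and 2.00% and 2.15% without. Null against wild-type, the balance of hosts with an interval at the TSS was the other way, with 18 up (2.63%) and 11 down (1.61%), and of those without one 5 were up (3.52%) and 0 down, while non-hosts had 1.53% up and 1.77% down, and 1.73% in both directions. Without E2.5 wild-type replicate 5 the host counts were 14 and 12 of 682, then 3 and 0 of 142. Over all 13272 genes tested, 461 were then up and 196 down. Without E2.5 wild-type replicate 6 the host counts were 12 and 12 of 682, then 3 and 0 of 141. Over all 13293 genes tested, 454 were then up and 197 down. Of the hosts among chromatin regulators, the DNA methyltransferase gene Dnmt3a, with 3 peaks, was called down, at medians of 99.3, 122 and 61.1 CPM in wild-type, het and null embryos (log2 fold change -1.03, SE 0.31, adjusted p 0.0594). It was not called against wild-type (-0.62, adjusted p 0.309), nor without E2.5 wild-type replicate 5 (-0.62, 0.336) or 6 (-0.56, 0.41). In the pluripotency, trophectoderm, primitive endoderm, Hippo, Wnt, TGF-beta, POU and exosome lists, 0 hosts were called by edgeR in null against het.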

How the data were processed

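The authors called peaks with MACS2 2.2.7.1 on reads aligned with Bowtie2 2.4.4 to GRCm38, and the deposited lists give for each peak a score (10 times the -log10 q), the fold enrichment of signal over control at the summit, the -log10 p and -log10 q values and the summit. The deposited counts per gene were made by the authors with cutadapt 3.4, STAR 2.7.8a and HTSeq 0.11.4, with no normalization, 1 embryo each. The authors also used bedtools 2.30.0.

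Lists were intersected with bedtools 2.31.1. Sequence came from GRCm38 and genes from GENCODE vM21. A window of 200 bp around the midpoint of each interval served for GC, CpG and motifs, and the genome windows are all windows of that length under the same position rule. Counts were fitted in R 4.3.3 with edgeR 4.0.16 (filterByExpr, TMM, quasi-likelihood test, Benjamini-Hochberg adjustment), all 23 embryos in 1 fit of 3 genotypes with stages merged, and again with DESeq2 1.42.0. Other steps used Python 3.11.15, NumPy 2.4.6, SciPy 1.17.1, pandas 2.3.3 and Matplotlib 3.10.9.

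The distal intragenic peaks and the gene lists were chosen with earlier results of these data known. The peaks named are the 10 with the highest lower fold enrichment, up to 3 nearest to the 3 kb limit on each side, up to 3 per gene list, the 5 strongest in exons and the 5 hosts with the most peaks. The host genes named are up to 10 per direction with the largest called log2 fold change, null against het, and Dis3, Pou6f1, Nanog and Cdx2. The input libraries were not analysed.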

Additional observations from a re-analysis of the deposited data

Results flagged for a closer look

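In each group of 7 or 9 embryos of a genotype, the highest or lowest embryo was compared with its nearest neighbour. An embryo stood far from the others in 14 of 77 groups. The limit was set for about 1 in 20 by chance, a rate not measured on these levels. Where all other embryos were at 0, 1 count was enough, as for Gramd4 in null embryos. The levels below are CPM, each followed by that of the nearest other embryo.

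Among genes that were called up, Prdm13 was at 0.491 in E2.5 het replicate 1 (0.129), and Ell at 212 in E2.5 null replicate 4 (120). Among genes called down, Gramd4 was at 0.138 in E2.75 null replicate 3 (0) and at 7.63 in E2.5 wild-type replicate 3 (2.84). Stard5 was at 1.22 in E2.5 null replicate 3 (0.513). Srebf2 was at 116 in E2.75 het replicate 1 (49.1), at 7.69 in E2.75 null replicate 2 (3.32) and at 70.3 in E2.75 wild-type replicate 2 (33.8).

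Snap47 was at 9.74 in E2.75 null replicate 2 (0.969), and Eefsec at 3.29 in E2.5 null replicate 4 (0.936). Phc2 was at 45.5 in E2.75 het replicate 3 (20.3) and at 11.3 in E2.5 null replicate 3 (3.08). Pou6f1 was at 34.9 in E2.75 het replicate 3 (19.3). The ERCC spike-ins made up 4.64% of the counts in E2.5 het replicate 2, and 3.10% in the nearest other het embryo. The cause of these distances was not tested.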

How the results depend on the processing

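The number of distal intragenic peaks followed the rule. It was 1018 with an overlap of at least 50% of both peaks, 2915 over 1 kb from a TSS, 808 over 10 kb and 344 with a -log10 q of at least 5 in both replicates. It ran from 4521 to 24296 with 1 replicate left out, where no overlap is asked for. The share in introns was 68.7% with the 50% overlap, 66.6% over 5 kb and 66.3% at the stricter q. The median GC was 60.5% at the stricter q, 60% in 100 bp and 60% around the summit of replicate 1. The octamer was in 1.74% at the stricter q and in 0.207% of windows of 100 bp, and the POU6 motif in 0.671% of the latter, where fewer bases are searched.

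Null against het, hosts called up numbered 35 with no filter on low counts, 7 scaled to ERCC spike-ins, 20 with DESeq2, 2 among hosts of peaks called in all 4 lists and 3 among hosts with no interval at their own TSS, the last 2 being smaller sets. Hosts called down numbered 45, 255, 45, 0 and 1 in the same order, and 15 with stage as a covariate. As shares of hosts and of all genes, those up were 2.67% and 3.77% with no filter, 0.846% and 2.15% scaled to spike-ins and 2.42% and 5.76% with DESeq2. Those down were 3.43% and 1.61%, 30.8% and 33.4%, and 5.44% and 3.67% in the same order, and 1.81% and 2.12% with stage as a covariate. With 1 embryo left out, 8 to 15 were up and 9 to 36 down. Over all genes tested, 348 to 562 were up and 180 to 368 down in these fits. The 6 embryos that moved the number down most are named with the results. Other than in the smaller sets, the cause was not tested.

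Stage and replicate number as a replicate block gave 7 up (0.846%, beside 1.61% of all genes) and 8 down (0.967%, beside 0.865%). For the 5 pairs of a null and a het embryo of the same stage and number, the correlation across genes of their distances from the group means ran from -0.0991 to 0.0546.

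The alternatives for the comparisons with wild-type were chosen after seeing the data. DESeq2 called 37 hosts up (4.47%, beside 5.10% of all genes) and 24 down (2.90%, beside 2.91%), null against wild-type, and 3 up (0.363%, beside 0.127%), het against wild-type. Null against wild-type DESeq2 called 38 and 25 of 824 tested hosts without E2.5 wild-type replicate 5, and 39 and 23 of 823 without replicate 6. Counts over all genes are not given for these DESeq2 fits, so these host counts stand without a comparison. In edgeR, leaving out these embryos gave 17 and 15 up and 12 down in both cases, null against wild-type. For the named genes and the checks, 400 values kept their side of the threshold, 73 lost a call, 7 gained one and 0 changed sign.

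Null libraries were shallower, which limits genes at low levels most, and the 2 controls of the peak lists have 1 sample each. The depth of the peak lists is unknown, and a lack of overlap with a list against mCherry-only cells does not show a lack of binding.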
